A study of Mus musculus with 24 samples.

Results

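The data describe 8 genes of the Nodal signalling pathway in differentiating male mouse embryonic stem cells (mESCs) after knockdown of *Smarcc1* or *Smarca4*. The members were picked by name as the entries for the ligands *Nodal* and *Gdf3*, the inhibitors *Lefty1* and *Lefty2*, the coreceptors *Tdgf1* and *Cfc1*, the transcription factor *Foxh1* and the inhibitory Smad *Smad7*, and all 8 were found among the 25965 entries of the table. This choice was made with earlier results of these data known. The cells were C57/Bl6 mESC lines that were expanded in 2i medium, a mix of inhibitors that holds mESCs in the naive state, and weaned into DME HiHi medium to differentiate. On day 2 they were transduced by retrovirus with a short hairpin RNA and then selected with puromycin, controls included. The groups were *Smarcc1* knockdown (hairpins Smarcc1.6 and Smarcc1.7), *Smarca4* knockdown (hairpins Smarca4.4 and Smarca4.6) and the nonsilencing control hairpin, Nons, each sampled on days 4, 5, 6 and 7 with 1 RNA-seq library per hairpin and day. This gave 8, 8 and 4 libraries. A second Nons series that the labels list (4 libraries) was not analysed here. Each comparison with Nons therefore rests on 1 Nons series, and *p*-values measure the spread between these libraries, which comes from the hairpin pairs. *Smarcc1* encodes a core subunit of the BAF chromatin remodelling complex, and *Smarca4* encodes Brg1, one of its ATPases.

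Nodal is a secreted ligand of the TGF-beta family that signals through activin receptors to Smad2 and Smad3, and it needs an EGF-CFC coreceptor, Cripto (encoded by *Tdgf1*) or Cryptic (encoded by *Cfc1*). Activated Smads bind DNA with partners such as Foxh1 and raise the transcription of *Nodal* itself and of *Lefty1* and *Lefty2*, whose secreted products block the receptor complex and so close a feedback loop. In the early embryo the pathway maintains the epiblast and patterns the germ layers, and in cultured mESCs its genes are active around the exit from naive pluripotency.

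Levels are given in rpm, reads at a gene per 1000000 reads in its library, and differences and tests on the log2 scale of the same values. Library totals ranged from 6829596 to 27472885 reads, with the smallest in Smarca4.4 on day 5, and 3 reads were worth 0.109 to 0.439 rpm. *Smarcc1* was lower than in Nons of the same day in 8 of 8 *Smarcc1* knockdown libraries, by 1.33 on the log2 scale on average (SE 0.205, adjusted *p* = 0.00115), and *Smarca4* was lower in 8 of 8 *Smarca4* knockdown libraries (log2 difference -1.79, SE 0.288, adjusted *p* = 0.00277). The latter missed the threshold without Smarca4.6 (-1.59, adjusted *p* = 0.0685) and without day 7 (-1.76, adjusted *p* = 0.0558). A label of the *Smarca4* libraries calls them a Smarcc knockdown, and their titles, which name *Smarca4*, were followed. The 7 pluripotency markers examined, *Pou5f1* and *Nanog* among them, had reads in the libraries of all groups, with summed levels of 416.1 to 2080.5 rpm in Nons.

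The hairpins decide which cells were depleted of which subunit, so their guide strands are shown, as DNA letters with the seed (bases 2 to 8) in capitals:
Smarcc1.6: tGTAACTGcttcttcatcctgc
Smarcc1.7: tTGCTCATcttcttccttctga
Smarca4.4: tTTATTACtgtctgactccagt
Smarca4.6: tTGCATAAtagtgttcatcagt
The reverse complement of each 22-base guide was found in GENCODE transcripts of its named target and of no other gene, so no member holds a full-length match. The 4 seeds differ from one another.

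Per kilobase of exon, the coreceptor *Tdgf1* was by far the most abundant member, with a median of 367.4 rpm per kb over the 20 libraries (27.2 to 588.4, the lowest on day 7, where it came within the range of the genes that follow). Then came *Lefty1* with 58.4 rpm per kb (21 to 162.0), *Nodal* with 37.0 (20 to 81.8), *Foxh1* with 31.5 (19.7 to 49.1), *Gdf3* with 25.3 (3.65 to 44.4) and *Lefty2* with 23.9 (13.2 to 58.3). These 5 had overlapping ranges over the 20 libraries, and their order among themselves was not tested within libraries. *Smad7* was lower, with 7.40 rpm per kb (3.46 to 8.16), a range that overlapped only that of *Gdf3* among the genes above it. *Cfc1* was close to the detection limit, with 1.01 rpm per kb (0 to 3.11), and lay below *Smad7* in every library.

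**Figure D1:**
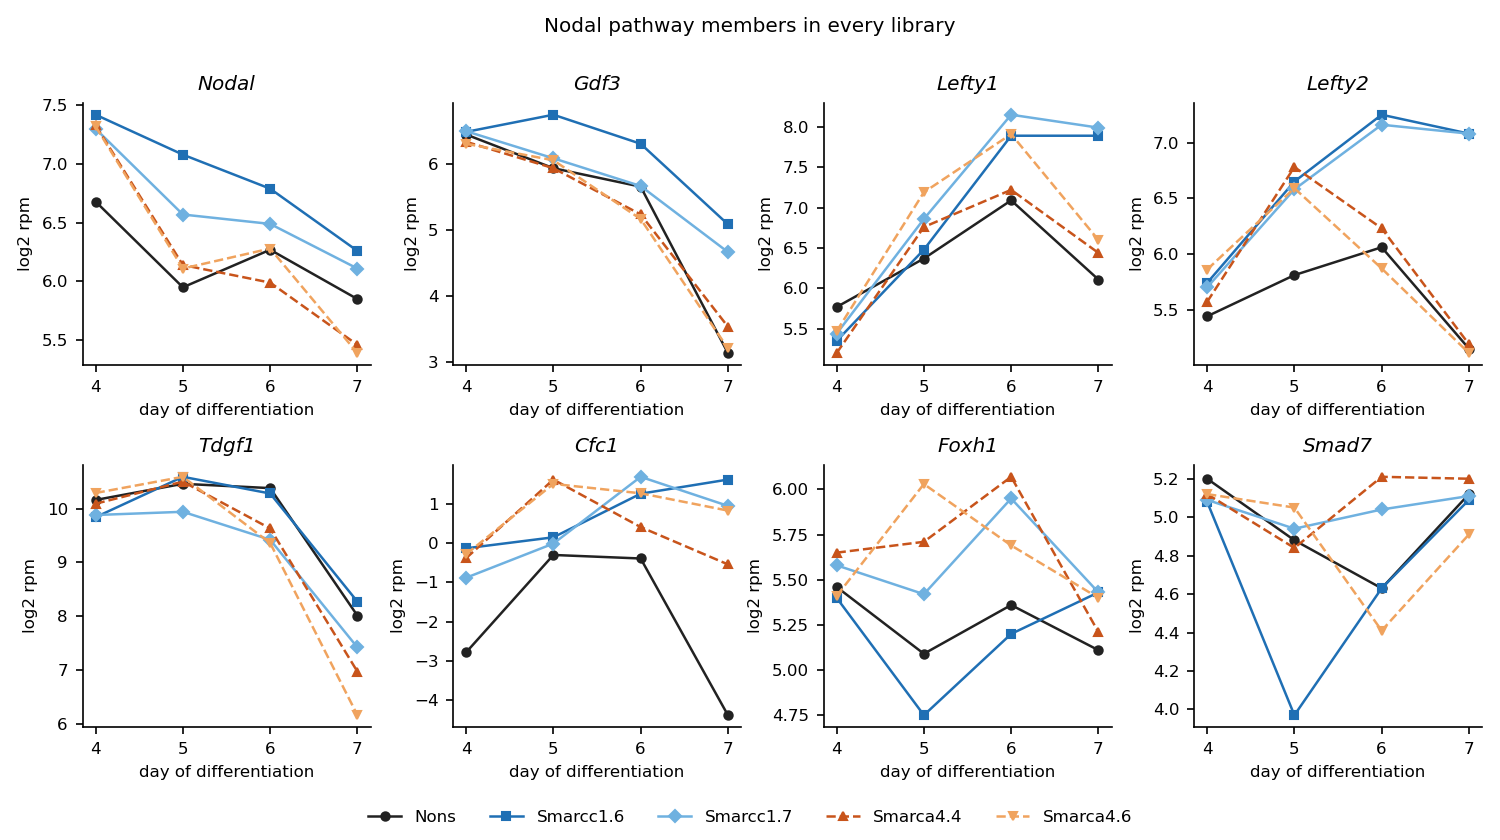
Level of each member (log2 rpm, y axis, scaled for each gene) against day of differentiation (x axis), with 1 point per library and 1 line per hairpin or Nons series. *Nodal*, *Gdf3* and *Tdgf1* were lowest on day 7 in all 5 series, *Lefty1* was lowest on day 4 in all 5, and the *Smarcc1* knockdown lines of *Lefty1* and *Lefty2* stayed high on day 7.

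Several members changed with the day of differentiation, tested as an average over the 3 groups. Both ligands fell: *Nodal* was 0.406 times its day 4 level on day 7 (log2 difference -1.3, SE 0.131, adjusted *p* = 2.18e-06), and *Gdf3* was 0.162 times (-2.63, SE 0.173, adjusted *p* = 5.2e-08). Most of the fall of *Gdf3* came between days 6 and 7 (-1.82, adjusted *p* = 4.94e-05). The coreceptor *Tdgf1* was highest on day 5 in 5 of 5 series and then dropped, with a log2 difference of -2.44 between days 6 and 7 (SE 0.235, adjusted *p* = 5.54e-05). *Lefty1* went the other way, rising by 1.35 from day 4 to day 7 (SE 0.16, adjusted *p* = 9.27e-06) with a peak on day 6 in 5 of 5 series. *Lefty2* rose by 0.74 from day 4 to day 5 (SE 0.117, adjusted *p* = 0.00042) and fell by 0.64 from day 6 to day 7 (adjusted *p* = 0.00261). *Foxh1* and *Smad7* did not pass the test in any step on the deposited scale. From day 4 to day 7, 4 of the 8 members were called, 1 higher and 3 lower, where 64.5% of the 13296 genes tested were called, 35.7% higher and 28.8% lower. For the single steps *Cfc1* is left out of the counts, since it passed the filter on low values only through the knockdowns, as described below. Of the other 7 members, 2 were called higher and 1 lower from day 4 to day 5 (38.7% of all genes, 19.5% higher and 19.2% lower). From day 5 to day 6, 1 was higher and 1 lower (32.3% of all genes were called). From day 6 to day 7, 5 were lower and 0 higher (10.6% of all genes were lower and 16.9% higher). The median of all genes moved by 0.15 between days 6 and 7, and centring each library on its median gene turned this shift to -0.048. Under that centring *Foxh1* also passed between days 4 and 7 (log2 difference -0.39, adjusted *p* = 0.0406), and from day 6 to day 7 it was called lower with centring and with quantile normalization.

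Both Lefty genes were higher in *Smarcc1* knockdown than in Nons, most of all on day 7. Their products are antagonists of Nodal and their genes are direct targets of the pathway. *Lefty2* lies on chromosome 1 at 180893108 to 180899103 and *Lefty1* at 180935022 to 180938400 (mm10, both on the plus strand), with 35918 bases between them. The coding sequences of 1104 bases each were 91.8% identical, with a longest identical run of 140 bases, which is more than the 75 bases of a read. Of the 75-base windows in its transcripts, *Lefty1* shared 11.7% with *Lefty2*, and *Lefty2* shared 7.77% with *Lefty1*. How reads from those windows were assigned is not given in the sources used here, so a small part of each gene's reads is uncertain.

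*Lefty2* in Nons was 43.5, 56.1, 66.5 and 35.4 rpm on days 4, 5, 6 and 7. In *Smarcc1* knockdown it was 53.5, 100.7, 152.2 and 135.3 rpm with Smarcc1.6, and 52.1, 95.8, 143.1 and 135.1 rpm with Smarcc1.7. In *Smarca4* knockdown it was 47.4, 109.7, 74.9 and 36.5 rpm with Smarca4.4, and 57.9, 96.6, 58.6 and 34.5 rpm with Smarca4.6. All 8 *Smarcc1* knockdown libraries lay above Nons of their day, and the gap widened from a mean log2 difference of 0.28 on day 4 to 1.93 on day 7. The hairpins of the pair differed by at most 0.09. Both *Smarca4* knockdown libraries were also high on day 5, but on days 6 and 7 they lay on both sides of Nons. Averaged over days, *Lefty2* was 2.06-fold higher in *Smarcc1* knockdown (log2 difference 1.04, SE 0.107, 95% interval 0.81 to 1.27, limma adjusted *p* = 6.99e-05). In *Smarca4* knockdown the log2 difference was 0.29 (0.05 to 0.52, adjusted *p* = 0.152). *Lefty2* was higher in *Smarcc1* than in *Smarca4* knockdown (0.76, SE 0.0874, adjusted *p* = 0.000553), but this was 0.37 without day 7 (adjusted *p* = 0.306) and 0.73 without Smarcc1.6 (adjusted *p* = 0.0503).

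*Lefty1* in Nons was 54.7, 82.6, 136.5 and 68.8 rpm on the same days. It was 40.8, 89.2, 237.8 and 237.7 rpm with Smarcc1.6, and 43.5, 115.8, 284.8 and 253.4 rpm with Smarcc1.7. With Smarca4.4 it was 36.9, 108.6, 148.7 and 86.8 rpm, and with Smarca4.6 44.2, 145.7, 239.8 and 96.7 rpm. On day 4 all 4 knockdown libraries were below Nons, and on days 5, 6 and 7 all 12 were above it, furthest in *Smarcc1* knockdown on day 7 (mean log2 difference 1.83). Averaged over days, *Lefty1* was 1.59-fold higher in *Smarcc1* knockdown (log2 difference 0.67, SE 0.147, 95% interval 0.35 to 0.99, limma adjusted *p* = 0.0107), and this call was lost without day 7 (0.28, adjusted *p* = 0.691) and without Smarcc1.7 (0.57, adjusted *p* = 0.113). In *Smarca4* knockdown the log2 difference was 0.26 (-0.06 to 0.58, adjusted *p* = 0.364), and the contrast between the knockdowns was 0.41 (0.15 to 0.67, adjusted *p* = 0.0864), which passed without day 5 (0.65, adjusted *p* = 0.0164).

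The difference grew with time for both genes. The slope over days was steeper in *Smarcc1* knockdown than in Nons by 0.73 log2 units per day for *Lefty1* (SE 0.132, limma adjusted *p* = 0.0227) and by 0.53 for *Lefty2* (SE 0.0958, adjusted *p* = 0.0226), where 0.94% of all genes had a different slope, 0.865% steeper upwards and 0.0752% downwards. No other member passed for *Smarcc1*, and none did for *Smarca4*, where 0.135% of all genes passed: there limma called 0 of 8, with 2 at an unadjusted *p* under 0.05, and limma-voom also called 0. Both slope calls were lost without either hairpin of either knockdown, and without day 4 or day 7, though the slope of *Lefty1* stayed between 0.65 and 0.77. The slope calls for *Smarcc1* over all genes fell as well, from 125 to 0 without Smarcc1.6 and to 10 without Smarcc1.7. They fell to 39 and 38 without Smarca4.4 and Smarca4.6, to 4 without day 4 and to 5 without day 7. With the libraries centred on the median gene the slopes were 0.67 (adjusted *p* = 0.054) and 0.48 (adjusted *p* = 0.0516).

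The tested genes that flank the Lefty pair on its outer sides showed no difference between *Smarcc1* knockdown and Nons that passed the test. *BC031781*, on the far side of *Lefty2*, had a log2 difference of 0.05 (adjusted *p* = 0.827), and *Tmem63a*, on the far side of *Lefty1*, one of 0.14 (SE 0.285, adjusted *p* = 0.811).

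Of the ligands, *Nodal*, on chromosome 10 at 61417972 to 61425338 on the plus strand, was 102.7, 61.6, 77.3 and 57.9 rpm in Nons on days 4 to 7. It was 171.3, 135.2, 110.5 and 76.8 rpm with Smarcc1.6, and 157.3, 95.2, 89.9 and 69.1 rpm with Smarcc1.7. It was 161.0, 70.6, 63.4 and 44.1 rpm with Smarca4.4, and 159.8, 68.9, 77.9 and 42.0 rpm with Smarca4.6. On day 4 all 4 knockdown libraries stood above Nons, with mean log2 differences of 0.68 in *Smarcc1* and 0.64 in *Smarca4* knockdown. From there the knockdowns parted: all 8 *Smarcc1* libraries remained above Nons, by a mean of 0.33 on day 7, while both *Smarca4* libraries were below it on day 7, by a mean log2 difference of -0.43. Averaged over days, *Nodal* was 1.48-fold higher in *Smarcc1* knockdown (log2 difference 0.56, SE 0.12, 95% interval 0.30 to 0.82, limma adjusted *p* = 0.00897). In *Smarca4* knockdown the log2 difference was 0.06 (-0.20 to 0.32, adjusted *p* = 0.828). The knockdowns differed by 0.50 (SE 0.0982, adjusted *p* = 0.0135). With the culture series as a block the adjusted *p* was 0.0516 for *Smarcc1* knockdown against Nons and 0.0907 between the knockdowns, and without Smarcc1.6 the log2 differences were 0.43 (adjusted *p* = 0.0656) and 0.37 (adjusted *p* = 0.187). The call against Nons was also lost without day 4 (0.53, adjusted *p* = 0.0885), without day 7 (0.64, adjusted *p* = 0.0609) and with each library centred on its median gene (0.51, adjusted *p* = 0.0572). That between the knockdowns was lost without either *Smarca4* hairpin (0.48, adjusted *p* = 0.141, and 0.52, adjusted *p* = 0.169), without day 6 (0.50, adjusted *p* = 0.0512) and without day 7 (0.41, adjusted *p* = 0.292).

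*Gdf3*, a ligand related to Nodal that uses the same coreceptor, lies on chromosome 6 at 122605403 to 122610087 on the minus strand. In Nons it was 87.2, 61.4, 50.4 and 8.85 rpm. It was 90.0, 107.7, 79.3 and 34.0 rpm with Smarcc1.6, and 90.8, 68.1, 50.8 and 25.4 rpm with Smarcc1.7. With Smarca4.4 it was 81.1, 61.2, 37.7 and 11.6 rpm, and with Smarca4.6 79.5, 66.5, 36.0 and 9.24 rpm. The difference was concentrated on day 7, when *Smarcc1* knockdown libraries were 3.84 and 2.87 times Nons, whereas on days 4 and 6 Smarcc1.7 was 1.04 and 1.01 times Nons. Averaged over days, *Gdf3* was 1.57-fold higher in *Smarcc1* knockdown (log2 difference 0.65, SE 0.159, 95% interval 0.31 to 0.99, limma adjusted *p* = 0.019), and without day 7 the log2 difference was 0.29 (adjusted *p* = 0.67). In *Smarca4* knockdown it was -0.07 (-0.42 to 0.27, adjusted *p* = 0.856), and the knockdowns differed by 0.72 (SE 0.129, adjusted *p* = 0.00894). With the culture series as a block these adjusted *p* values were 0.0824 and 0.0576, and without Smarcc1.6 the log2 differences were 0.43 (adjusted *p* = 0.0757) and 0.51 (adjusted *p* = 0.105). The call against Nons was also lost with centring (0.59, adjusted *p* = 0.0616), with quantile normalization (0.57, adjusted *p* = 0.0561) and without either *Smarca4* hairpin (adjusted *p* = 0.0884 and 0.0886), whose libraries add to the estimate of spread. That between the knockdowns was also lost without either *Smarca4* hairpin (0.76, adjusted *p* = 0.106, and 0.68, adjusted *p* = 0.197) and without day 7 (0.46, adjusted *p* = 0.338).

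The principal coreceptor gene, *Tdgf1* (chromosome 9, 110939610 to 110946158, minus strand), was 1143.7, 1408.1, 1330.3 and 258.0 rpm in Nons. It was 918.5, 1542.9, 1240.2 and 307.7 rpm with Smarcc1.6, and 942.2, 984.7, 683.8 and 171.7 rpm with Smarcc1.7. It was 1091.2, 1446.5, 794.3 and 125.0 rpm with Smarca4.4, and 1253.7, 1542.6, 658.4 and 71.4 rpm with Smarca4.6. The *Smarcc1* hairpins were both below Nons on days 4 and 6 and lay on both sides of it on days 5 and 7, with 6 of 8 libraries below. Both *Smarca4* hairpins were close to Nons on days 4 and 5 and below it on days 6 and 7, by mean log2 differences of -0.88 and -1.45. Neither average passed the test: the log2 difference was -0.30 in *Smarcc1* knockdown (-0.77 to 0.17, limma adjusted *p* = 0.464) and -0.55 in *Smarca4* knockdown (-1.02 to -0.08, adjusted *p* = 0.171). The pseudogene *Tdgf1-ps1* shares 5.99% of the 75-base windows of *Tdgf1*, and reads from these are uncertain.

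The other coreceptor gene, *Cfc1* (chromosome 1, 34535648 to 34544311, plus strand), was low throughout and is described apart. It passed the filter on low values, which asked for a log2 rpm of 0 or more on average, with a mean of 0.06, to which Nons contributed a mean of -1.96 and the knockdowns 0.58 and 0.55, so its test had to lean towards a difference and supports nothing here. In Nons it had 4, 16, 12 and 0 reads on days 4 to 7. In *Smarcc1* knockdown it had 20, 24, 54 and 67 reads with Smarcc1.6 and 12, 21, 51 and 31 reads with Smarcc1.7. In *Smarca4* knockdown it had 18, 21, 23 and 15 reads with Smarca4.4 and 15, 67, 38 and 30 reads with Smarca4.6. All 16 knockdown libraries lay above Nons of their day in rpm. Pooled over libraries this was 0.392 rpm in Nons (32 reads, 95% exact Poisson interval 0.268 to 0.553), 1.72 rpm in *Smarcc1* knockdown (280 reads, 1.52 to 1.93) and 1.58 rpm in *Smarca4* knockdown (227 reads, 1.38 to 1.80), where the intervals cover counting error only. On day 7, against the 3 reads that a count of 0 allows in Nons (0.16 rpm), *Cfc1* was at least 19.2-fold and 12.1-fold higher with Smarcc1.6 and Smarcc1.7, and at least 4.29-fold and 11.1-fold higher with Smarca4.4 and Smarca4.6. The fitted log2 differences, which depend on the value given to a count of 0, were 2.55 in *Smarcc1* knockdown (limma adjusted *p* = 0.000164) and 2.52 in *Smarca4* knockdown (adjusted *p* = 0.000461), and the knockdowns differed by 0.03 (-0.50 to 0.55, adjusted *p* = 0.977).

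*Cfc1* also overlaps *Prss40*, a gene for a serine protease on the opposite strand, by 289 exon bases, and 22.4% of the 75-base windows of *Cfc1* lie in *Prss40* transcripts. Because the use of strand in counting is not given in the sources used here, reads of the genes cannot be told apart over this stretch. *Prss40* had 0, 7, 7 and 1 reads in Nons on days 4 to 7, and 6 to 39 reads in the knockdown libraries. In rpm its entry, like that of *Cfc1*, was above Nons of the same day in every knockdown library. The difference at *Prss40* was not tested, and the part of the shared stretch in either rise is not known.

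**Figure D2:**
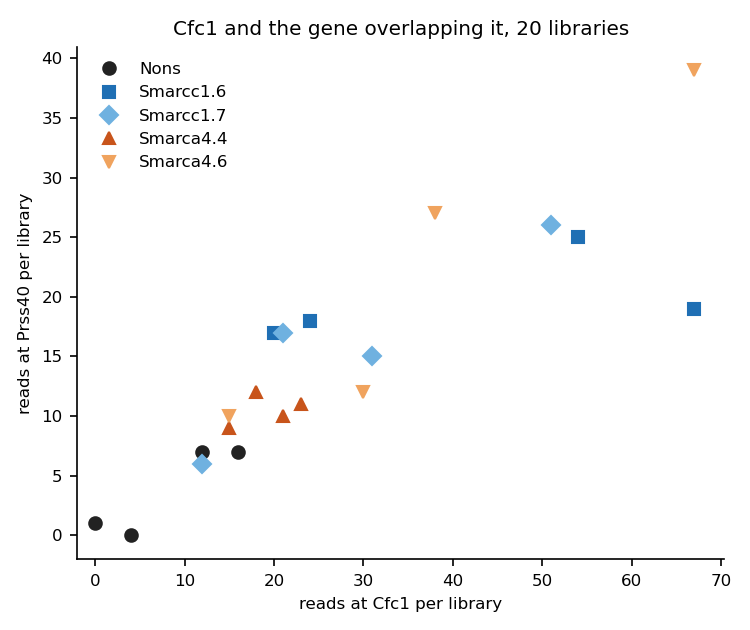
Reads at *Prss40* (y axis) against reads at *Cfc1* (x axis) in each of the 20 libraries, with symbols for hairpins and Nons. The 4 Nons libraries lie at 0 to 16 reads of *Cfc1* and 0 to 7 reads of *Prss40*, and the knockdown libraries at 12 to 67 and 6 to 39.

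RefSeq promoters (GRCm38.p6, the mm10 build) matched 3 of the 8 members, *Nodal*, *Tdgf1* and *Cfc1*, while *Lefty1*, *Lefty2*, *Gdf3*, *Foxh1* and *Smad7* had no entry. The 250 bases before each start are shown for these 3 because the pathway acts on its targets through Smads and Foxh1. Capitals mark TGTNNATT, a core that Foxh1 sites hold, or its reverse complement AATNNACA:
Nodal, chr10:61417722-61417971, plus strand: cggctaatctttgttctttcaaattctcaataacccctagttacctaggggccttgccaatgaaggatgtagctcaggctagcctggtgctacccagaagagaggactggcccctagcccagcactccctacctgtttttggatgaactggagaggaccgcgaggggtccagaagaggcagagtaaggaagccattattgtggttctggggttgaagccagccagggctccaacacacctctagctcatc
Tdgf1, chr9:110946159-110946408, minus strand: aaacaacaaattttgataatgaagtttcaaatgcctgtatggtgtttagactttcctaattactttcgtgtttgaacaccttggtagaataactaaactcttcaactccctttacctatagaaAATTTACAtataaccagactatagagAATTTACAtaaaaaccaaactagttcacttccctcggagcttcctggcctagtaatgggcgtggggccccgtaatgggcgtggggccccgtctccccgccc
Cfc1, chr1:34535398-34535647, plus strand: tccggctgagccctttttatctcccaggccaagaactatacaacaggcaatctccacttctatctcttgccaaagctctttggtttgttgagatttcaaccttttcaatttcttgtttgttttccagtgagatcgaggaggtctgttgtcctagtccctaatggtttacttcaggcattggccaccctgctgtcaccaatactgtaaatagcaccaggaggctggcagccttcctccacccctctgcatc
The *Tdgf1* window held 2 matches, and those of *Nodal* and *Cfc1* held 0, where 10.9% of the 32851 promoters of this length held at least 1. The Smad box GTCT or its reverse complement AGAC occurred 3 times in the *Tdgf1* window, once in that of *Cfc1* and 0 times in that of *Nodal*, and in 82.9% of all promoters. Both strands were searched, and a TGTNNATT match can contain a Smad box, in which case it counts for both. A match is a run of letters and not a measured binding site. Sequence outside these windows was not searched, so a window with 0 matches says nothing about sites elsewhere at the gene.

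The transcription factor and the inhibitory Smad passed the test in neither knockdown. *Foxh1* (chromosome 15, 76668284 to 76669948, minus strand) was 34.1 to 44.2 rpm in Nons (median 37.8), 26.9 to 61.6 rpm in *Smarcc1* knockdown (median 43.0) and 37.0 to 67.1 rpm in *Smarca4* knockdown (median 50.8). It was above Nons of the same day in 7 of 8 *Smarca4* and 5 of 8 *Smarcc1* libraries, and its log2 difference was 0.39 in *Smarca4* knockdown (0.02 to 0.75, limma adjusted *p* = 0.222) and 0.14 in *Smarcc1* knockdown (-0.23 to 0.50, adjusted *p* = 0.674). *Smad7* (chromosome 18, 75367529 to 75395935, plus strand), whose product blocks receptor signalling, was 24.8 to 36.7 rpm in Nons (median 32.1), 15.7 to 34.4 rpm in *Smarcc1* knockdown (median 33.4) and 21.3 to 36.9 rpm in *Smarca4* knockdown (median 33.9). The groups overlapped, and the log2 differences were -0.09 (-0.50 to 0.33, adjusted *p* = 0.823) and 0.02 (-0.39 to 0.44, adjusted *p* = 0.965).

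**Figure D3:**
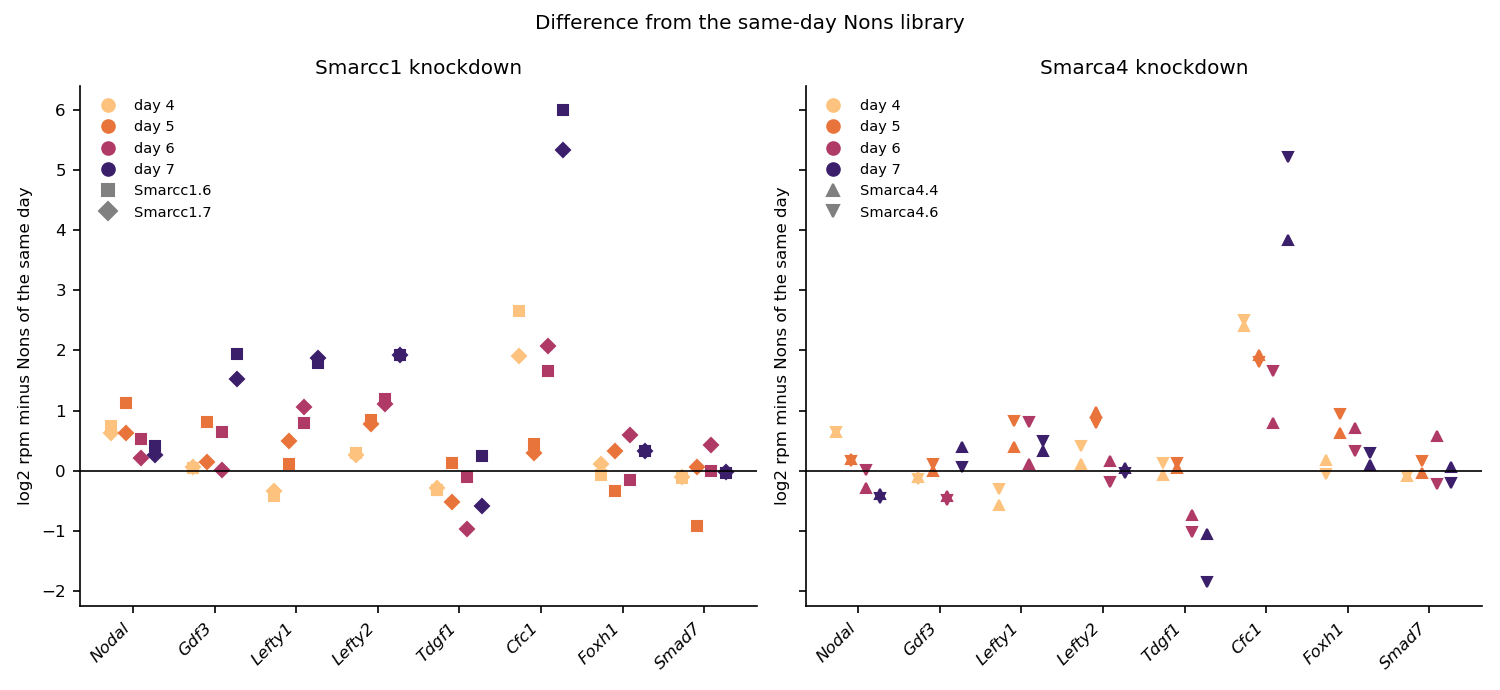
Log2 rpm minus that of Nons on the same day (y axis) for each member (x axis) in the 8 *Smarcc1* and 8 *Smarca4* knockdown libraries, coloured by day with a symbol for each hairpin. All 8 *Smarcc1* knockdown points of *Nodal*, *Gdf3*, *Lefty2* and *Cfc1* lie above 0, and in *Smarca4* knockdown only *Cfc1* has all 8 points above 0.

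Set side by side over the 7 members that pass the filter in each group on its own, which leaves out *Cfc1*, *Smarcc1* knockdown called 4 higher (*Nodal*, *Gdf3*, *Lefty1* and *Lefty2*) and 0 lower, where 10.6% of all genes tested were called, 7.54% higher and 3.08% lower. The median log2 difference over the 7 members was 0.56 beside 0.064 for all genes. The members were chosen with earlier results of these data known. Their counts and medians beside those of all genes are therefore a description and not a test of the pathway. In *Smarca4* knockdown limma and limma-voom called 0 of the 7, with 3 at an unadjusted *p* under 0.05 in limma, where 6.71% of all genes were called, 4.75% higher. The median log2 difference was 0.06, beside 0.064 for all genes. The comparisons share the Nons libraries. The direct contrast of the knockdowns, which uses none of them, called 3 members higher in *Smarcc1* knockdown (*Nodal*, *Gdf3* and *Lefty2*), where 4.09% of all genes were called, 2.55% higher and 1.54% lower, with a median of 0.41 over the 7 members beside 0 for all genes. With the culture series as a block, only *Lefty1* and *Lefty2* of the 7 stayed called in *Smarcc1* knockdown against Nons. In the direct contrast only *Lefty2* did. The block called 4.55% and 0.79% of all genes in these comparisons. Without day 7, *Lefty2* alone of the 7 was called in *Smarcc1* knockdown and 0 were called in the direct contrast, while the calls over all genes fell as well, from 1412 to 379 and from 544 to 56. Without Smarcc1.6 the direct contrast called 0 of the members and 49 of all genes, and without Smarca4.4 or Smarca4.6 it called 1 member, *Lefty2*, and 156 or 88 of all genes. In these bulk libraries, a change in the share of cells expressing a gene and a change in its RNA per cell cannot be told apart.

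**Figure D4:**
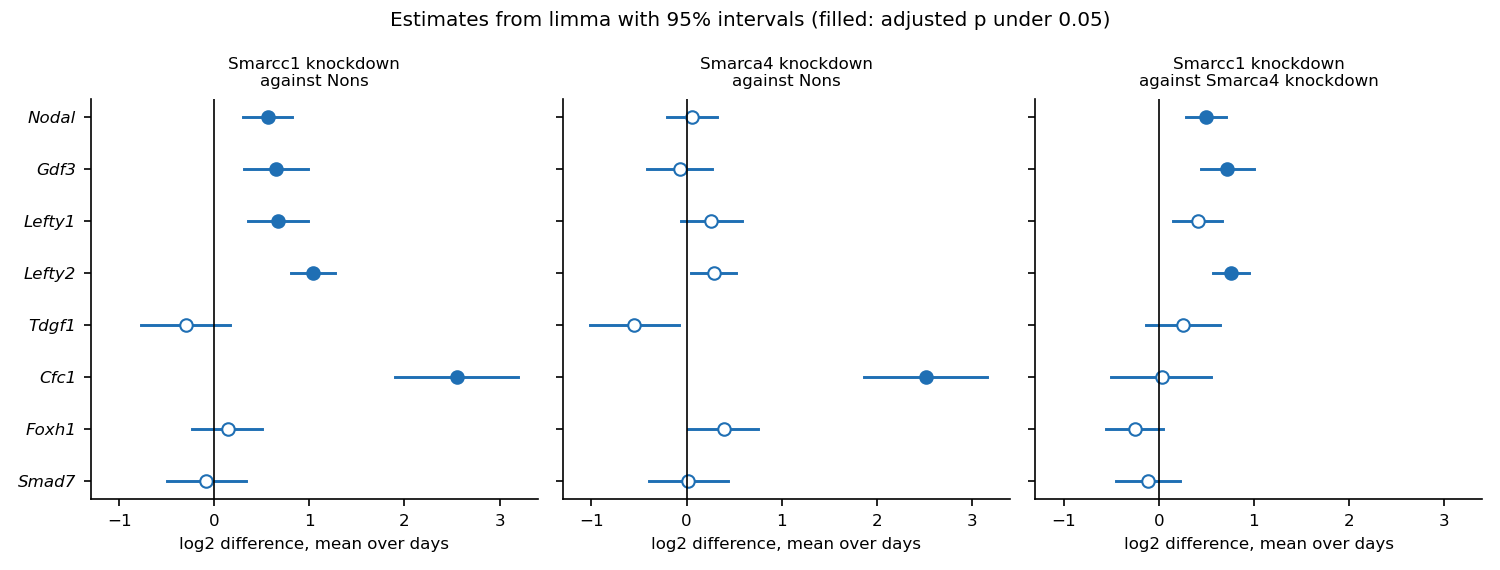
Log2 differences averaged over days (x axis, points) with 95% intervals from limma (lines) for each member (y axis), for both knockdowns against Nons and for *Smarcc1* against *Smarca4* knockdown, with filled points for an adjusted *p* under 0.05. There are 5 filled points for *Smarcc1* knockdown, 1 for *Smarca4* knockdown and 3 for the direct contrast. *Cfc1* is among the 5 and is the only filled point for *Smarca4* knockdown, and its test supports nothing here.

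For the rest of the pathway, a list of 36 further ligands, convertases, receptors, antagonists, transducers, restrainers and targets was in the table, and 27 of them were tested. For *Smarcc1* knockdown limma called 0 of 27, with 7 at an unadjusted *p* under 0.05, and a median log2 difference of 0.03 beside 0.064 for all genes, while limma-voom called 2, *Fst* and *Pmepa1*. Limma called 4 on log2(rpm + 1) values and 4 with centring. For *Smarca4* knockdown 2 of 27 were called, both lower, where 6.71% of all genes were called, 1.96% lower. *Fst*, whose product follistatin binds activins, was 8.12, 5.47, 4.77 and 6.07 rpm in Nons and 1.08 to 4.61 rpm in the *Smarca4* knockdown libraries (log2 difference -1.39, SE 0.262, adjusted *p* = 0.00722). This call was lost without Smarca4.6 (-1.13, adjusted *p* = 0.114) and without day 7 (-1.35, adjusted *p* = 0.0604). *Pmepa1*, a target of TGF-beta that restrains Smad signalling, was 8.99, 8.20, 9.86 and 12.2 rpm in Nons and 3.43 to 7.09 rpm in the *Smarca4* knockdown libraries (-1.06, SE 0.286, adjusted *p* = 0.0448, and 0.216 with the culture series as a block). The call of *Pmepa1* was lost without either *Smarca4* hairpin, without the day 5 library of Smarca4.4, and without day 4, 6 or 7, where the log2 difference was -0.93 to -1.08. In *Smarcc1* knockdown their log2 differences were -0.81 (adjusted *p* = 0.0691) and -0.93 (adjusted *p* = 0.0581). The receptor genes *Acvr1b*, *Acvr2a* and *Acvr2b* and the transducers *Smad2*, *Smad3* and *Smad4* passed in neither knockdown. With day, 17 of the 27 were called from day 4 to day 7, 11 higher and 6 lower, where 64.5% of all genes were called. Among those higher was *Furin*, a convertase of the Nodal precursor (log2 difference 2.96, SE 0.314, adjusted *p* = 3.4e-06). The other convertase on the list, *Pcsk6*, was called lower. The mesendoderm targets *Gsc*, *Mixl1*, *Lhx1*, *Foxa2*, *T* and *Sox17* stayed below 1.1 rpm in every library and were not tested.

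Markers of cell state moved beside the members. Of 7 pluripotency genes, 5 were higher in *Smarcc1* knockdown, among them the naive factors *Nanog* (log2 difference 1.09, adjusted *p* = 0.000591), *Esrrb* (1.84, adjusted *p* = 6.9e-05) and *Klf4* (1.81, adjusted *p* = 0.0001), and 3 were higher in *Smarca4* knockdown. The block left 4 and 3, losing *Sox2*. Their summed level was above Nons of the same day in 7 of 8 *Smarcc1* (575.9 to 2281.9 rpm) and 3 of 8 *Smarca4* libraries (379.3 to 2201.9 rpm). *Pou5f1* weighs heavily in this sum, with 1606.6 of 2080.5 rpm in Nons on day 4, so the sum does not describe each marker. The formative and primed epiblast genes *Fgf5* and *Otx2* were lower in both knockdowns, 2 of 4 on their list. With the culture series as a block, 1 of these calls remained in *Smarcc1* knockdown, *Fgf5*, and 0 in *Smarca4* knockdown (adjusted *p* = 0.082 for *Fgf5* and 0.0657 for *Otx2*). Endoderm markers summed to 4.62 to 40.2 rpm in Nons, 4.88 to 39.9 in *Smarcc1* and 2.58 to 33.7 in *Smarca4* knockdown, with *Gata4* higher in both (1 of 3 tested, of 6 on the list), though not with the block (adjusted *p* = 0.0522 and 0.205). Streak and mesoderm markers summed to 4.2 to 13.4 rpm in Nons, 3.65 to 13.8 in *Smarcc1* and 6.04 to 16.0 in *Smarca4* knockdown. Their sum was above Nons of the same day in 6 of 8 *Smarcc1* and 8 of 8 *Smarca4* libraries. Only 1 of the 5 on this list was tested, and it was called in neither knockdown. Trophoblast markers summed to at most 166.2, 81.3 and 145.1 rpm, with *Krt7* lower in *Smarcc1* knockdown (log2 difference -1.02). Neural markers summed to 65.7 to 134.7 rpm in Nons, 73.9 to 134.6 in *Smarcc1* and 57.8 to 181.8 in *Smarca4* knockdown, and 1 of 4, *Sox1*, was higher in both. Fibroblast markers were above Nons in 7 of 8 *Smarcc1* libraries (5.31 to 124.9 rpm, against 7.03 to 52.8 in Nons) and in 4 of 8 *Smarca4* libraries, with *Col1a1* higher in *Smarcc1* knockdown (1 of 4, adjusted *p* = 0.178 with the block). No marker was at 0 in every library. The part of these markers in the differences of the Nodal genes was not tested.

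The genes whose levels most resembled each member over the 20 libraries were found by Pearson's *r* on log2 rpm. These values are a description, since libraries share days and series. For *Lefty1* they were *Gstt2* (*r* = 0.97), *Aldh3b1* (0.947) and *C1ql1* (0.937). For *Lefty2* they were *A330049M08Rik* (0.897), *Faah* (0.874) and *Galr2* (0.871). *Nodal* most resembled *4930519F16Rik* (0.916), *Npl* (0.914) and *Mpv17l* (0.91), *Gdf3* resembled *Pipox* (0.981), *Upp1* (0.973) and *Serpina3m* (0.961), and *Tdgf1* resembled *AC139347.1* (0.955), *Sap30* (0.952) and *Gngt2* (0.951). For *Cfc1* they were *Slc47a2* (0.862), *Syt3* (0.852) and *Selenbp1* (0.849), for *Foxh1* *Wasf1* (0.896), *Kifc2* (0.88) and *Fam100a* (0.873), and for *Smad7* *Scrib* (0.917), *Cpsf1* (0.915) and *Sh3bp4* (0.905). Among the members, the closest pairs were *Gdf3* with *Tdgf1* (0.893), *Gdf3* with *Nodal* (0.805) and *Lefty1* with *Lefty2* (0.703), while *Nodal* and *Lefty1* had an *r* of -0.459.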

How the data were processed

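Per the study's methods, the authors trimmed single-end reads of 75 bases with trim_galore and used tophat or HISAT2 for alignment to mm10. They deposited log2 rpm values per gene, made in SeqMonk with its RNA-seq quantitation pipeline. Neither the annotation release nor the use of strand is given in the sources used here. A gene without reads holds 0.9 of a read on the deposited log2 scale, and from this value whole reads and library totals were recovered (100% of values at low counts lay within 0.1 of a whole number). The tests used limma 3.58.1 (R 4.3.3, a moderated fit with a mean-variance trend). Its input was the log2 rpm values of the 13296 genes whose average over libraries was 0 or more, and *p*-values were adjusted by Benjamini-Hochberg over all of them, with a threshold of 0.05. The fit held a mean for each group and day, with 8 residual degrees of freedom, and knockdown contrasts were averaged over days. The script was tested on simulated data. All members are named with their values, as are pathway genes called in a knockdown, and the 3 genes most like each member. Members and lists were chosen with earlier results of these data known. Exon lengths and 75-base windows came from GENCODE M21. Deviations of the hairpins of a pair correlated between days at 0.0233 to 0.823 for *Smarcc1* and -0.206 to 0.367 for *Smarca4*, and hairpin numbers pair no cultures across groups. The alternatives were other filters, an added 1 rpm, centring, quantile normalization, limma-voom, a block for the culture series, and leaving out hairpins, days or the smallest library. Some results on single genes and a sequence are not reported here.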

Additional observations from a re-analysis of the deposited data

Results flagged for a closer look

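Results of 5 tests were singled out because the effects of the 2 knockdowns, or the courses of a knockdown and Nons, differed by a test of the difference itself. Between *Smarcc1* and *Smarca4* knockdown, *Lefty2* differed by 0.76 on the log2 scale (limma adjusted *p* = 0.000553), *Gdf3* by 0.72 (adjusted *p* = 0.00894) and *Nodal* by 0.50 (adjusted *p* = 0.0135), each higher in *Smarcc1* knockdown. Between *Smarcc1* knockdown and Nons, the slope over days differed by 0.73 log2 units per day for *Lefty1* (adjusted *p* = 0.0227) and by 0.53 for *Lefty2* (adjusted *p* = 0.0226).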

How the results depend on the processing

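No called result reversed under any alternative. The counts of members here are over all 8 and include *Cfc1*, which passed the filter only through the knockdowns and whose calls support nothing. Over the other 7, 4 were called in *Smarcc1* and 0 in *Smarca4* knockdown. For *Smarcc1* knockdown against Nons, the 5 members called became 3 with centring on the median gene and 3 with a replicate block for each culture series. They became 2 to 5 when a hairpin, a day or the smallest library was left out. For *Smarca4* knockdown the 1 member called was *Cfc1*, and 0 were called with a minimum of 10 rpm, which removes it. Between the knockdowns the 3 members called became 1 with the block and 0 to 4 with the leave-outs. From day 5 to day 6 the 2 called became 1 without a filter, 1 with centring, 1 with quantile normalization and 1 to 2 with the leave-outs. From day 6 to day 7 the 6 called became 7 with centring and 7 with quantile normalization, which add *Foxh1*, 5 with log2(rpm + 1) and 5 with a minimum of 10 rpm, which lose *Cfc1*, and 5 to 6 with the leave-outs, with *Nodal* lost without either *Smarca4* hairpin. The 2 slopes called for *Smarcc1* became 0 with centring, 1 with quantile normalization and 0 to 2 with the leave-outs, and 3 with limma-voom and 3 with the block, which add *Cfc1*. For the pathway list, the 0 called in *Smarcc1* knockdown became 4 with log2(rpm + 1), 4 with centring, 2 with quantile normalization, 2 with limma-voom and 0 to 4 with the leave-outs, and the 2 called in *Smarca4* knockdown became 0 with a minimum of 10 rpm, 1 with the block and 0 to 2 with the leave-outs. The cause of these changes was not tested. Over all genes, the share of calls that were higher was 71% in *Smarcc1* and 70.7% in *Smarca4* knockdown, 64.2% and 60.5% with centring, and 53.7% and 52.9% with quantile normalization. From day 6 to day 7 it was 61.5%, 38.2% with centring and 44.3% with quantile normalization. The block lowered the calls over all genes from 1412 to 605 for *Smarcc1*, from 892 to 258 for *Smarca4* and from 544 to 105 between the knockdowns.

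Nons has 1 library per day, so its spread was not measured and a shift of 1 Nons library moves both knockdowns. Depth limits *Cfc1*, whose counts of 0 to 67 reads leave its level uncertain, and the mesendoderm targets, which were near or under 3 reads in part of the libraries.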
